A study of Mus musculus with 28 samples.

Results

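Gene expression was compared between skeletal muscle of vehicle-treated mice taken 4 h after injection and muscle of vehicle-treated mice taken 2 h after injection, across all genes. The comparison takes 10 of the 28 arrays of the series, chosen by their titles: 5 arrays labelled 4 h vehicle and 5 labelled 2 h vehicle. The other arrays are vehicle at 8 h (5 arrays) and interleukin 1b (IL-1b, an inflammatory cytokine) at 2 h (5), 4 h (5) and 8 h (3). All injections went into the brain's ventricles. No group is labelled with a genotype, strain, age or sex, and the labels name neither the vehicle, the muscle, the food access nor the hour of the day, so the passage from injection to recovery, the length of any fast and the hour of the day cannot be told apart here. No label says whether the 5 arrays of a group come from 5 mice, and p-values therefore measure the spread between arrays, which may be technical. RNA was measured on whole-transcript Affymetrix arrays with 17831 probe sets, each of which bundles the probes of 1 transcript region.

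Muscle switches its fuel from glucose towards fatty acids when food is withheld, and mitochondrial carriers, acyl-transfer enzymes and the pyruvate dehydrogenase kinases take part in that switch. Muscle also carries a circadian clock, in which the activators Arntl (Bmal1), Clock and Npas2 drive repressors of the Per, Cry and Rev-erb families and output factors such as Dbp. Immediate early genes are transcribed within minutes of a stimulus such as stress, handling or nerve activity, and their RNA is short-lived.

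Values are on the log2 scale and centred, with 0 at the median of the 28 arrays for each probe set, so a value of 1 means double that median and no value is an expression level. Muscle identity cannot be checked by level for the same reason. Of 6 muscle fibre markers measured, 0 passed an adjusted p of 0.05 between the vehicle groups (limma, 1 below 0.05 unadjusted), and the mean of these markers ran from -0.055 to 0.113 over the 2 h arrays and from -0.069 to 0.012 over the 4 h arrays. One array stood apart: the 2 h replicate 7 had an SD over probe sets of 0.2978, against 0.1137 to 0.2109 in the other 9 arrays.

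The change from 2 to 4 h was small. Of 17831 probe sets, 18 (0.101%) passed an adjusted p of 0.01 (limma, Benjamini-Hochberg over all probe sets), 3 (0.0168%) higher and 15 (0.0841%) lower at 4 h. The threshold is the false discovery rate of 1% that the study's design text names. Only Ucp3 and Nr4a2 also passed its 1.75-fold limit. At an adjusted p of 0.05, 84 probe sets (0.471%) passed, 26 higher (0.146%) and 58 lower (0.325%), and 1994 (11.2%) had an unadjusted p below 0.05. The genes that rose were Ucp3, Pkp4 and Cpt1a. Those that fell were Nr4a2, Ypel2, Spon2, Klf4, Sqle, Pdgfb, Dll1, Ahdc1, Ttyh2, Dach1, Fosl2, Dyrk2, Itga5 and Plxna2. In addition, 1 probe set that did not have exactly 1 gene symbol fell by 0.42 (adjusted p = 0.00369). The median difference over all probe sets was -0.014, and 45.2% of them had a positive difference.

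**Figure D1:**
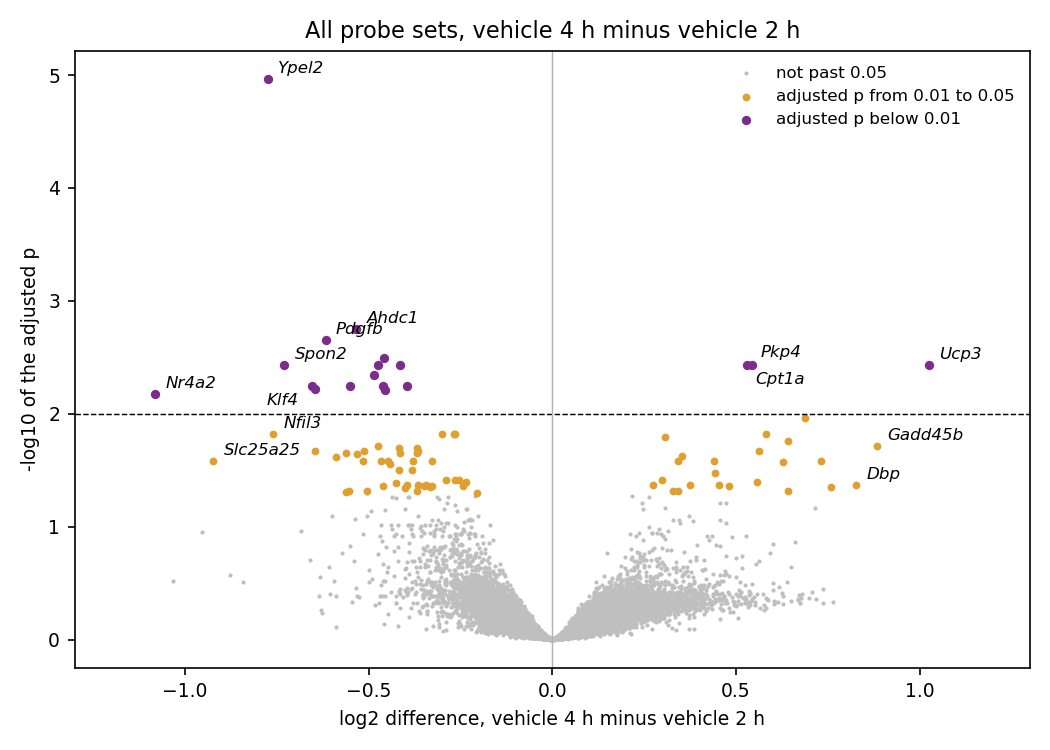
Each point is 1 of 17831 probe sets, with the log2 difference of vehicle 4 h minus vehicle 2 h on the horizontal axis and -log10 of the limma adjusted p on the vertical axis. The dashed line marks an adjusted p of 0.01, the 18 probe sets above it are purple, and those between 0.01 and 0.05 are orange. Ucp3 lies farthest to the right and Nr4a2 farthest to the left among the purple points, and Ypel2 lies highest.

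The calls rest on small groups. With each of the 10 vehicle arrays left out in turn, the number of probe sets called was 7, 16, 8, 8 and 22 without the 2 h replicates 1, 5, 7, 9 and 11, and 5, 7, 11, 9 and 8 without the 4 h replicates 1, 3, 5, 7 and 17. In each of these 10 fits all 18 probe sets kept their direction and stayed below an adjusted p of 0.05. Ypel2, Pdgfb and Ahdc1 kept an adjusted p below 0.01 in all 10 fits, and Dyrk2 in 9 (adjusted p = 0.012 without the 2 h replicate 1). Sqle, Itga5 and Plxna2 lost the call in 8 fits each, Pkp4, Dll1 and Ttyh2 in 7, Spon2 in 5 and Dach1 in 3 (adjusted p up to 0.0331). Without the widely spread 2 h replicate 7, 7 of the 18 were still called, namely Ucp3, Ypel2, Klf4, Pdgfb, Ahdc1, Dyrk2 and the probe set without exactly 1 symbol. A model fitted to the 10 vehicle arrays alone, which takes the spread from these arrays only, called 0 probe sets at 0.01, 9 at 0.05 and 1863 at an unadjusted p below 0.05, and 7 of the 18 were among its calls at 0.05.

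The largest rise was that of Ucp3, the mitochondrial carrier of muscle whose RNA is known to increase in fasting. On the 2 h arrays its centred values were -0.41, -0.82, -0.68, -1.37 and -1.17 (replicates 1, 5, 7, 9 and 11). On the 4 h arrays they were 0.07, 0.12, 0.22, -0.14 and 0.41 (replicates 1, 3, 5, 7 and 17). Every 4 h array lay above every 2 h array, and the 2 h arrays spread more widely. The groups lay apart in this direction for 150 probe sets (0.841%), and in either direction for 459 (2.57%). Called genes were chosen by their p on these same arrays, so their separation is not further evidence. Ucp3 rose by 1.02 ± 0.17 (log2 difference ± SE, 5 arrays in each group, adjusted p = 0.00369), a 2.03-fold difference. Its adjusted p was between 0.0104 and 0.0134 without the 2 h replicate 9 or without any 1 of the 4 h replicates 1, 3, 5 and 17.

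Cpt1a encodes a carnitine palmitoyltransferase, one of the enzymes that commit long-chain fatty acids to import into mitochondria. Its values were -0.08, -0.18, -0.28, -0.39 and -0.39 at 2 h and 0.21, 0.25, 0.13, 0.27 and 0.47 at 4 h, in the same order of replicates. The groups did not overlap, and Cpt1a rose by 0.53 ± 0.09 (adjusted p = 0.00369). Cpt1a lost its call in 7 of the 10 fits that left out an array, with an adjusted p of at most 0.0142, and also after quantile normalization of the arrays (adjusted p = 0.0222).

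Both genes belong to a list of fasting and fatty acid genes, of which 28 of 36 were measured. Of the 28, 2 rose, 0 fell and 26 did not pass, against 0.0168% of all probe sets called higher. The count fell to 1 after quantile normalization or without the 3 widest arrays of the series, and to 0 in the model of the 10 vehicle arrays. At an adjusted p of 0.05, 5 were higher and 0 lower, against 0.146% of all probe sets called higher. The list's median difference was 0.127, and 23 of its members had a positive difference, against a median of -0.014 and 45.2% positive over all probe sets. With Ucp3 and Cpt1a included, the mean of its members was between -0.170 and -0.057 on the 2 h arrays. On the 4 h arrays it was between -0.026 and 0.171, so these means did not overlap. Because the 2 called genes are part of the means, this is not separate evidence for the rest of the list, and means without them were not taken. The means of the clock output list, which also holds Ucp3, did not overlap either (-0.313 to -0.120 at 2 h, -0.094 to 0.039 at 4 h).

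Among the list's regulators, Pdk4, the kinase that shuts pyruvate out of oxidation, was at -0.52, -0.26, -0.30, -0.68 and -0.81 at 2 h and at 0.11, 0.07, 0.00, -0.08 and 0.25 at 4 h. The groups did not overlap, yet the difference of 0.58 ± 0.11 missed the threshold (adjusted p = 0.0151). Pdk4 passed it with array weights (adjusted p = 0.00144) and without the 2 h replicate 5 (adjusted p = 0.00904). Ppargc1a, a coactivator of mitochondrial genes, differed by 0.56 ± 0.12 (adjusted p = 0.0398), with overlapping groups. The related gene Ppargc1b went the other way, at -0.26 ± 0.07 (adjusted p = 0.128). Of the 10 regulators measured, 7 had a positive and 3 a negative difference. Acot2, a mitochondrial thioesterase that frees fatty acids from coenzyme A, differed by 0.73 ± 0.16 (adjusted p = 0.026). Those with little difference included the importer gene Cpt2 at 0.01, the trifunctional protein subunits Hadha at 0.13 and Hadhb at 0.14, and Angptl4, the secreted lipase inhibitor, at 0.20. All 9 measured genes of uptake, transport and activation had a positive difference, from 0.01 to 0.53, while the rest of that group beside Cpt1a did not pass. Cpt1b, of the same enzyme family as Cpt1a, was not among these 9.

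Fat tissue left on a muscle sample would carry some of the same transcripts, among them Fabp4 and Lpl. Of 12 adipocyte markers, 0 passed and 0 had an unadjusted p below 0.05. A positive difference was found for 11 (median 0.099), against 45.2% of all probe sets (median -0.014). Their mean was highest on the 2 h replicate 9, at 0.770, and between -0.135 and 0.004 on the other 2 h arrays. On the 4 h arrays it was 0.242, 0.219, -0.012, 0.469 and 0.356 (replicates 1, 3, 5, 7 and 17). With 1 vehicle array left out, the list's median difference ran from 0.042 to 0.240. The defining adipocyte genes Adipoq, Lep and Plin1 differed by 0.39, 0.41 and 0.01 (adjusted p = 0.798, 0.593 and 0.993). Ucp3 had its lowest value on that same 2 h replicate 9, and Cpt1a one of its 2 lowest. The part of fat tissue in the results was not tested.

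Genes of glycogen and glucose use showed no call. Of 23 measured, 0 passed limma's adjusted p of 0.01 in either direction and 4 had an unadjusted p below 0.05, against 11.2% of all probe sets. The median was -0.02 and 11 were positive, against 45.2% of all probe sets. Ppp1r3b, which targets a phosphatase to glycogen, had the largest difference of the list at -0.35 (adjusted p = 0.097). Its groups did not overlap, as for 1.73% of all probe sets in this direction. Ppp1r3c, of the same family, differed by -0.14, and the hexokinase gene Hk2 by 0.00.

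**Figure D2:**
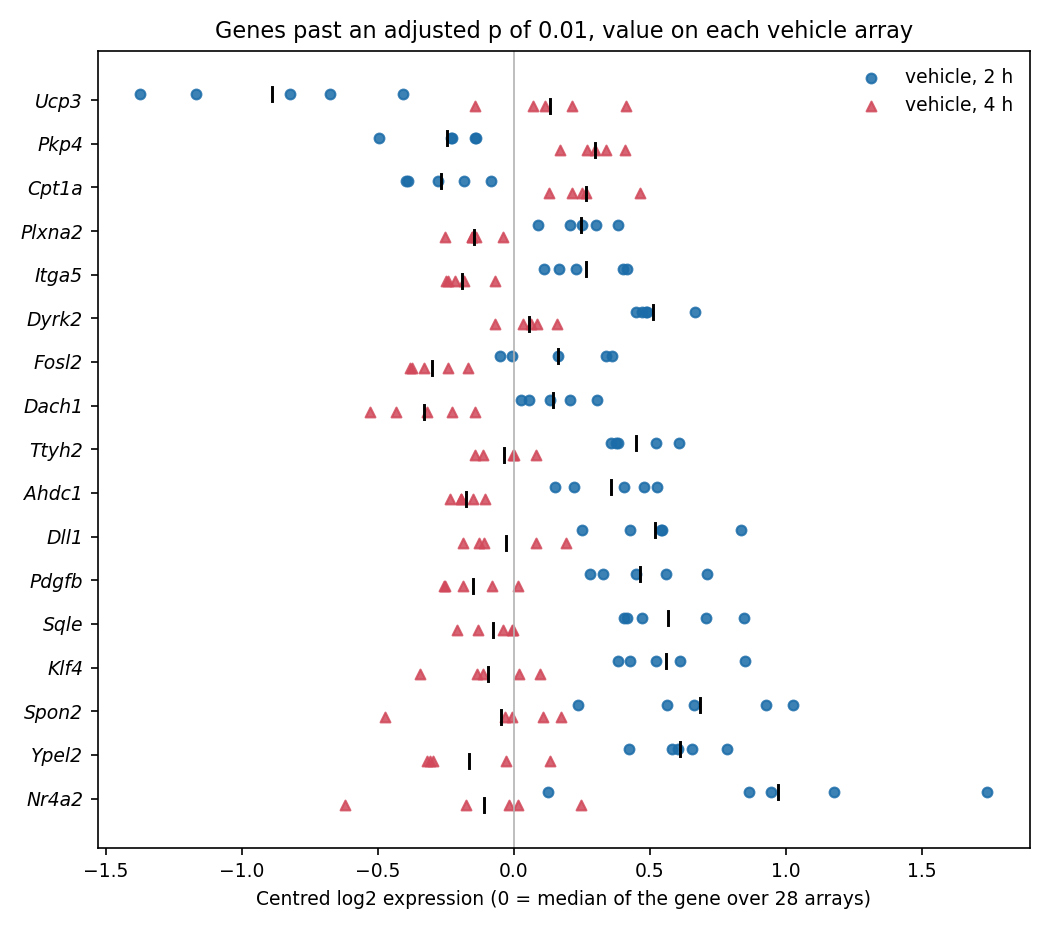
Centred log2 values of the 17 named genes past an adjusted p of 0.01, with 1 point per array (blue circles, 5 vehicle arrays at 2 h; red triangles, 5 vehicle arrays at 4 h) and short black bars at the group means. Genes are ordered by their difference, with Ucp3 at the top and Nr4a2 at the bottom. The groups overlap for Nr4a2 and for none of the other 16, while 2.57% of all probe sets have groups apart. The genes shown were chosen by their p on these same arrays.

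The third gene that rose, Pkp4, encodes plakophilin 4, an armadillo-repeat protein of cell junctions. Its values were -0.22, -0.14, -0.50, -0.23 and -0.14 at 2 h and 0.34, 0.41, 0.30, 0.17 and 0.27 at 4 h. All 4 h arrays were above all 2 h arrays, and Pkp4 rose by 0.54 ± 0.09 (adjusted p = 0.00369, and 0.0112 with a trended and robust spread). On the vehicle arrays at 8 h its mean was -0.22 ± 0.17 (SD, n = 5), close to the 2 h mean of -0.25 ± 0.15. The fall from 4 to 8 h was -0.52 ± 0.09 (limma, adjusted p = 0.00626). It rests on the same 4 h arrays that gave the rise, so the 2 differences are not independent.

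Immediate early genes supplied the largest fall. The promoters of the 3 that fell are shown because their genes moved in the same direction. Each stretch runs from 250 bases before to 50 bases after the start of the gene, taken from RefSeq on the build GRCm38.p6: Fosl2 at chr5:32136222-32136521 on the plus strand, Nr4a2 at chr2:57123954-57124253 on the minus strand and Klf4 at chr4:55532426-55532725 on the minus strand. Capitals mark TGACG or its reverse complement CGTCA, the core of the cAMP response element, through which CREB is known to switch on many early genes.
Fosl2: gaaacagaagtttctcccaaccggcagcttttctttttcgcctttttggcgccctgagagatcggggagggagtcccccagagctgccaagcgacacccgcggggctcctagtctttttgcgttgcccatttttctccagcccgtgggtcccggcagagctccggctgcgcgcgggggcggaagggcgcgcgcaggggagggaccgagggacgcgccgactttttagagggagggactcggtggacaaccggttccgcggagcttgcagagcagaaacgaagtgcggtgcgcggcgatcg
Nr4a2: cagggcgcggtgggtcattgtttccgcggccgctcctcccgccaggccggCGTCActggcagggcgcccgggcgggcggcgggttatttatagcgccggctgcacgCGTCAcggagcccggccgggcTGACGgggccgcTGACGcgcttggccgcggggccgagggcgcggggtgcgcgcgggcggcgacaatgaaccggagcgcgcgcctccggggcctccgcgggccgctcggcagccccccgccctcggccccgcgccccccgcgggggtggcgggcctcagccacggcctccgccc
Klf4: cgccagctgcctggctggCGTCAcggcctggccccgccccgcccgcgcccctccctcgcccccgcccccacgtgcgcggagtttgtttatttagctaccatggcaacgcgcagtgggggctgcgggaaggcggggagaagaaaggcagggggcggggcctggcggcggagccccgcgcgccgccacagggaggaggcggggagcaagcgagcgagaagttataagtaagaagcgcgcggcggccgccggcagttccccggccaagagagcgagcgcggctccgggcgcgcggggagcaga
These letters occurred 4 times in the Nr4a2 promoter, once in that of Klf4 and 0 times in that of Fosl2. Among 32851 RefSeq promoters of this length, 20.8% held them on either strand, and among 16 promoters of 14 called genes 4 (25%) did. A match describes the letters of the window and is not evidence of binding.

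Nr4a2, an orphan nuclear receptor gene, was at 1.74, 1.18, 0.95, 0.87 and 0.13 on the 2 h arrays and at 0.25, -0.02, -0.62, -0.18 and 0.02 on the 4 h arrays. The 2 h replicate 11 lay inside the range of the 4 h arrays and the other 4 above it. Nr4a2 fell by 1.08 (SE 0.19, adjusted p = 0.00669), and its 2 h level was 2.12-fold the 4 h level. Its call was lost in 9 of the 10 fits without an array (adjusted p up to 0.0331) and kept without the 2 h replicate 11. Without the 3 arrays of the series with the widest spread its adjusted p was 0.0211.

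Klf4, a zinc finger factor, was at 0.85, 0.43, 0.39, 0.61 and 0.52 at 2 h and at 0.02, -0.13, 0.10, -0.35 and -0.11 at 4 h, and fell by 0.65 (SE 0.11, adjusted p = 0.00569). Fosl2, a Fos-family member of the AP-1 factor, was at 0.34, 0.00, 0.36, 0.17 and -0.05 at 2 h and at -0.37, -0.24, -0.33, -0.17 and -0.38 at 4 h, and fell by 0.46 (SE 0.08, adjusted p = 0.00569). In both, every 4 h array lay below every 2 h array. Each lost the call in 7 of the 10 fits, with an adjusted p of at most 0.0331.

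Of 29 immediate early genes measured, 3 fell, 0 rose and 26 did not pass, against 0.0841% of all probe sets called lower. The count was 1 without the 3 widest arrays and 0 in the model of the 10 vehicle arrays. Their median difference was -0.103, and 25 had a negative difference, against 54.8% of all probe sets. Most of the classic early genes were near 0: Fos at -0.16, Jun at -0.05, Junb at 0.06, Egr1 at -0.15, Ier2 at -0.10, Dusp1 at -0.08 and Arc at 0.11. Signs of differences this small turned with the processing for Jun and with 1 array left out for Jun, Junb and Dusp1. Fos, Fosl1, Maff, Jund and Myc did not pass, nor did the Egr and Nr4a relatives Egr2, Egr3, Nr4a1 and Nr4a3. Atf3, a stress-induced repressor, differed by -0.63 ± 0.38 (adjusted p = 0.543). On the 2 h replicate 7 it was at 1.52, against -0.08 to 0.23 on the other 2 h arrays, and without that array the difference was -0.35. The list's mean was also highest on that replicate (0.302, against -0.070 to 0.157 on the other 2 h arrays and -0.215 to -0.029 on the 4 h arrays), and without it the list's median was -0.053.

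**Figure D3:**
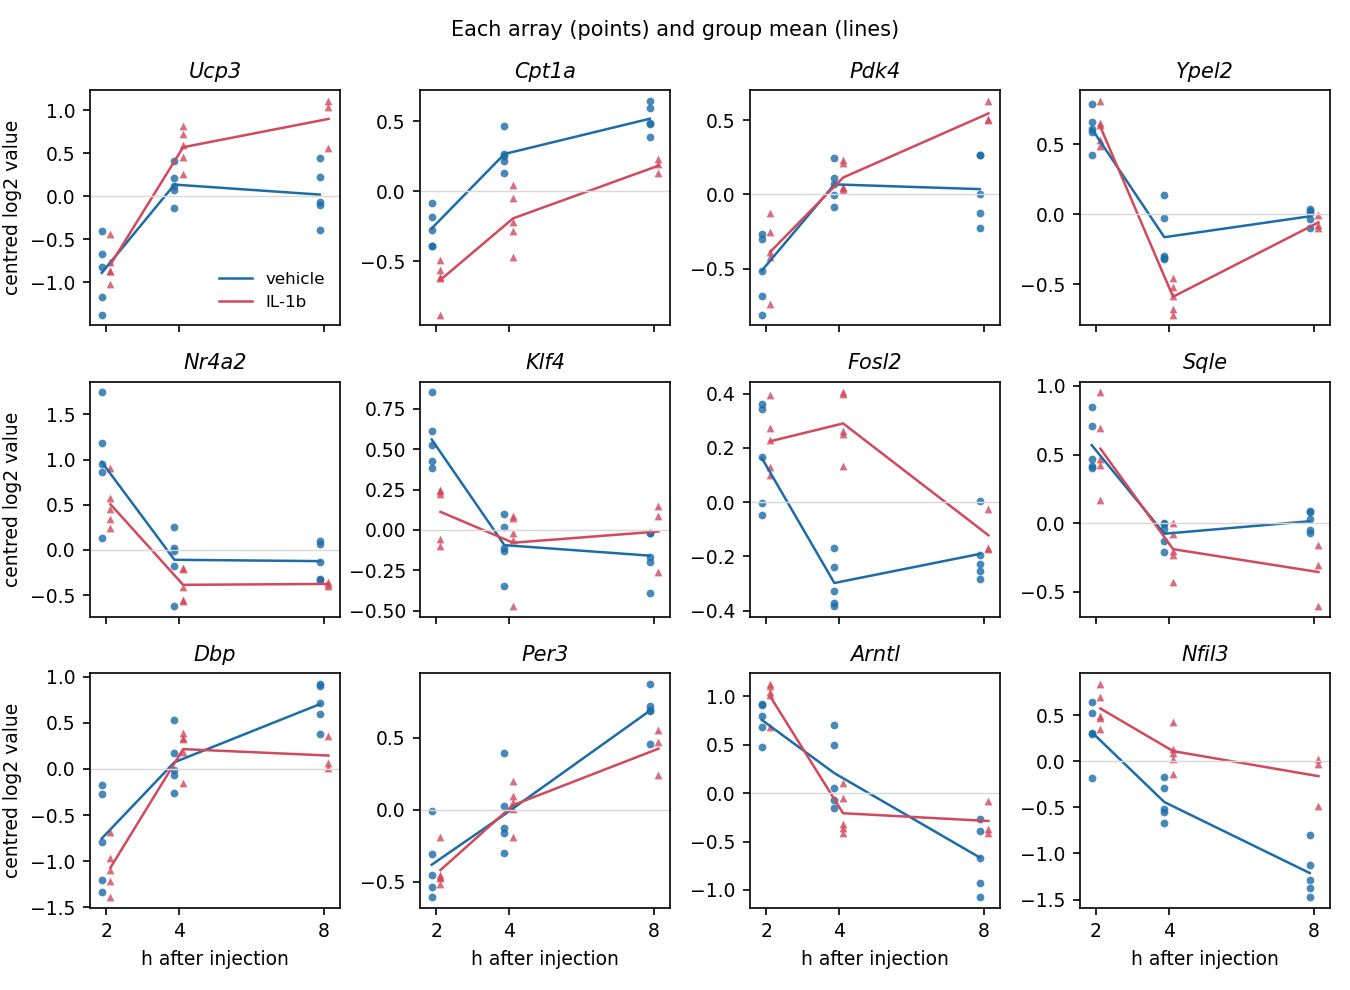
Centred log2 values of 12 genes against hours after injection in the vehicle (blue circles) and IL-1b (red triangles) arrays, with 1 point per array and lines through the group means. Fuel genes and Ypel2 are in the top row, early genes and Sqle in the middle row and clock genes in the bottom row. In vehicle muscle the means of Ucp3, Pdk4 and Ypel2 at 8 h lie near those at 4 h, while the means of Dbp, Per3, Arntl and Nfil3 move on in one direction to 8 h.

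Ypel2, a member of the Yippee-like gene family, had the smallest p of the comparison. Its values were 0.78, 0.66, 0.58, 0.61 and 0.42 at 2 h and -0.31, -0.03, -0.30, -0.32 and 0.13 at 4 h. The groups did not overlap, and Ypel2 fell by 0.77 (SE 0.08, adjusted p = 1.08e-05), with a 2 h level 1.71-fold the 4 h level. Its adjusted p was at most 0.000103 in the fits without an array and was 0.0389 in the model of the 10 vehicle arrays alone.

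Several genes that fell encode signals between cells or their receptors. Pdgfb, the platelet-derived growth factor chain through which endothelium recruits pericytes, was at 0.56, 0.28, 0.71, 0.45 and 0.33 at 2 h and at -0.25, -0.08, -0.26, 0.02 and -0.19 at 4 h. It fell by 0.62 (SE 0.09, adjusted p = 0.00222). Dll1, a ligand of Notch receptors, ran from 0.25 to 0.84 at 2 h and from -0.19 to 0.19 at 4 h, and fell by 0.55 (adjusted p = 0.00569). Spon2, a secreted matrix protein of the spondin family, ran from 0.24 to 1.03 at 2 h and from -0.47 to 0.17 at 4 h, and fell by 0.73 (SE 0.12, adjusted p = 0.00369). Itga5, the integrin subunit of the fibronectin receptor, fell by 0.46 (adjusted p = 0.00613), and the semaphorin receptor gene Plxna2 by 0.39 (adjusted p = 0.00569). In none of these 5 did the groups overlap. The 4 h arrays lay wholly below the 2 h arrays for 1.73% of all probe sets. The 5 genes were called on these same arrays, so their separation is not further evidence.

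Other genes that fell act inside the cell. Sqle, squalene epoxidase of cholesterol synthesis, was at 0.71, 0.41, 0.47, 0.85 and 0.42 at 2 h and at -0.01, 0.00, -0.13, -0.04 and -0.21 at 4 h, and fell by 0.65 (SE 0.11, adjusted p = 0.00608). Dyrk2, a protein kinase gene, was at 0.67, 0.45, 0.49, 0.47 and 0.49 at 2 h and between -0.07 and 0.16 at 4 h, and fell by 0.46 (SE 0.07, adjusted p = 0.00323). Ahdc1, an AT-hook DNA-binding protein gene, was between 0.15 and 0.53 at 2 h and between -0.23 and -0.11 at 4 h, and fell by 0.53 (SE 0.08, adjusted p = 0.00177). Dach1, a transcriptional corepressor gene, fell by 0.48 (adjusted p = 0.00369), and Ttyh2, a membrane protein of the tweety family, also by 0.48 (adjusted p = 0.00449). Dach1 was the one called gene whose 8 h mean (0.23 ± 0.18, SD, n = 5) lay beyond its 2 h mean (0.15 ± 0.11). Its rise from 4 to 8 h was 0.56 ± 0.08 (limma, adjusted p = 0.000687), on the same 4 h arrays that gave its fall.

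For the 3 genes higher at 4 h, the vehicle mean at 8 h was beyond the 4 h mean for 1, Cpt1a (0.52 ± 0.10, SD, n = 5), and between the 2 and 4 h means for the other 2. For the 15 probe sets lower at 4 h, the 8 h mean was beyond the 4 h mean for 5, between the means for 9 and past the 2 h mean for 1. These positions share the 4 h arrays with the comparison itself. Of the 18, Pkp4 and Dach1 were the 2 whose difference between 8 and 4 h passed an adjusted p of 0.01.

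No core clock gene passed between 2 and 4 h. Of 11 core clock genes measured, 0 were called by limma at 0.01, 8 had an unadjusted p below 0.05 (11.2% of all probe sets did), and at an adjusted p of 0.05 (0.471% of all probe sets) Nr1d2 was higher and Npas2 and Cry1 were lower. Nr1d2, the Rev-erb beta repressor gene, was at -0.49, -0.07, -0.41, -0.29 and -0.04 at 2 h and at 0.16, 0.16, 0.00, -0.02 and 0.06 at 4 h, a difference of 0.33 ± 0.08 (adjusted p = 0.0482). Cry1, a repressor of Clock and Arntl, differed by -0.38 ± 0.08 (adjusted p = 0.0311). For both, the groups did not overlap. The activator genes Npas2 and Arntl differed by -0.59 ± 0.12 (adjusted p = 0.0242) and -0.55 ± 0.16 (adjusted p = 0.148), with overlapping groups. Clock, Bhlhe41 and Per1 differed by -0.01, -0.01 and -0.15, and Cry2, Rora, Per3 and Bhlhe40 by 0.23, 0.24, 0.35 and 0.36, without passing.

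Among clock output genes, 1 of 14 measured rose, Ucp3, and 0 fell, against 0.0168% of all probe sets called higher. The count was 2 after quantile normalization and 0 in the model of the 10 vehicle arrays. The PAR bZIP activator gene Dbp was at -1.20, -0.79, -0.27, -1.33 and -0.17 at 2 h and at -0.07, -0.01, 0.17, 0.53 and -0.26 at 4 h. The 2 h replicate 11 lay above the lowest 4 h array, and the difference was 0.83 ± 0.19 (1.77-fold, adjusted p = 0.0427). Nfil3, the repressor that binds the same sites as Dbp, was at 0.65, 0.30, 0.31, 0.52 and -0.18 at 2 h and at -0.52, -0.55, -0.29, -0.67 and -0.17 at 4 h. The 2 h replicate 11 again lay inside the other group, and the difference was -0.76 ± 0.15 (adjusted p = 0.015). Nfil3 passed 0.01 without that array (adjusted p = 0.00274), after quantile normalization (0.00284) and among the 50% of probe sets with the larger spread (0.00768). The other PAR bZIP genes Hlf and Tef differed by 0.22 and 0.16.

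**Figure D4:**
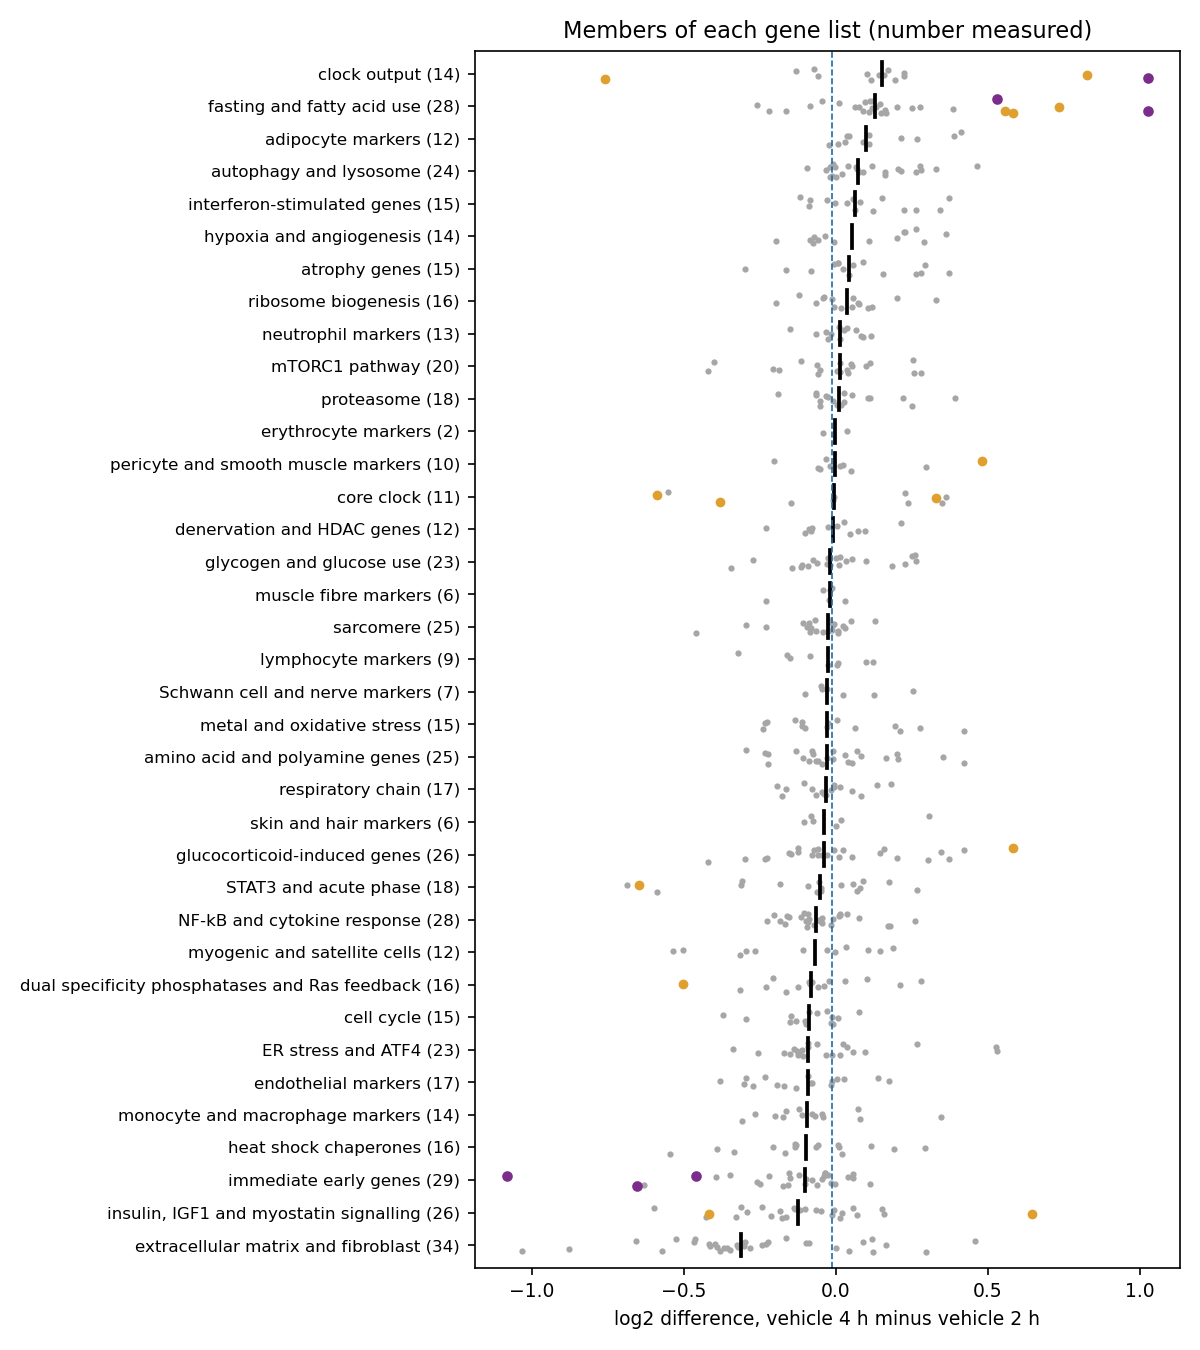
Log2 difference of vehicle 4 h minus vehicle 2 h for each measured member of 37 gene lists, 1 point per gene (purple, adjusted p below 0.01; orange, 0.01 to 0.05; grey, above 0.05), with black bars at the list medians and the number of members measured in brackets. The dashed line is the median of all probe sets, -0.014. Purple points occur in 3 lists, the extracellular matrix list has the lowest median (-0.312) and the clock output list the highest (0.150).

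Genes of stress hormones and muscle wasting did not pass. Of 26 glucocorticoid-induced genes measured, 0 were called at 0.01 by limma and 6 had an unadjusted p below 0.05 (11.2% of all probe sets did). The median was -0.038. Pdk4 was the 1 member past 0.05 after adjustment. Fkbp5, the co-chaperone induced by the glucocorticoid receptor, differed by 0.05 ± 0.18, Tsc22d3 (Gilz) by -0.12, Klf15 by 0.30 and the cell cycle inhibitor gene Cdkn1a by -0.30. Ddit4, an inhibitor of mTORC1, differed by -0.42 ± 0.40, with 1 array of the 4 h group, replicate 5, at 1.24 and the other 4 between -1.52 and -1.17. The mean of the glucocorticoid list was also highest on that replicate, at 0.126. It was between -0.343 and -0.178 on the other 4 h arrays and between -0.371 and -0.049 on the 2 h arrays. Of 21 atrophy genes listed, 15 were measured, and the ubiquitin ligase gene Trim63 (MuRF1) was not among the 15. Of these, 0 passed and 4 had an unadjusted p below 0.05. Fbxo32 (atrogin-1), a ubiquitin ligase of muscle atrophy, differed by 0.37 ± 0.14 (adjusted p = 0.323), and the factor Foxo1 by 0.02. The myogenic factor genes Myod1 and Myog differed by -0.50 ± 0.12 and -0.54 ± 0.14 (adjusted p = 0.0504 and 0.0853), and of 12 myogenic and satellite cell genes 0 passed, with 6 below 0.05 unadjusted, against 11.2% of all probe sets.

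Of 26 measured genes of insulin, IGF1 and myostatin signalling, 0 passed limma's adjusted p of 0.01, although 1 did after quantile normalization. At an adjusted p of 0.05, Bmp4, a bone morphogenetic protein gene, was higher (0.64, adjusted p = 0.0173) and Id1, an inhibitor of DNA binding, was lower (-0.42, adjusted p = 0.0199), against 0.471% of all probe sets called in either direction. The median was -0.126, and 10 members had an unadjusted p below 0.05, against 11.2% of all probe sets. Irs1, the insulin receptor substrate, was at 0.99, 0.59, 0.78, 0.36 and 0.25 at 2 h and at -0.06, -0.24, -0.25, 0.06 and 0.48 at 4 h. The 4 h replicate 17 lay inside the 2 h range, and the difference was -0.60 ± 0.15 (adjusted p = 0.0806). Of 24 autophagy and lysosome genes 0 passed, 17 had a positive difference and the median was 0.073, with 8 below 0.05 unadjusted, against 11.2% of all probe sets. Respiratory chain subunits (17 measured) and constitutive proteasome subunits (18) had 0 members at an adjusted p of 0.01 and 0 at an unadjusted p below 0.05, and their medians were -0.034 and 0.010. Sarcomere genes (25) had 0 calls, 2 below 0.05 unadjusted and a median of -0.025.

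Extracellular matrix genes had the lowest median of the 37 lists, -0.312, although 0 of the 34 measured passed limma's adjusted p of 0.01 and 0 that of 0.05. An unadjusted p below 0.05 was found for 23 of them, against 11.2% of all probe sets. All 12 collagen genes had a negative difference (median -0.394), against 54.8% negative over all probe sets. Col1a1, a chain of collagen I, was at 1.22, 0.71, 1.27, 0.31 and 0.00 at 2 h and at 0.00, -0.36, -0.30, -1.05 and 0.06 at 4 h, a difference of -1.03 ± 0.37 (adjusted p = 0.299). Col1a2 and Col3a1 differed by -0.88 and -0.66 (adjusted p = 0.265 and 0.197), with overlapping groups. The list's mean was highest on the 2 h replicates 1 (0.461) and 7 (0.342), lowest among the 2 h arrays on replicate 11 (-0.001), and between -0.145 and 0.121 on the 4 h arrays. Without replicate 7 the list's median was -0.27. The list was not uniform. Its 5 measured fibroblast and fibro-adipogenic markers had a median of 0.042, with Pdgfra at 0.09, Dpt at 0.04, Cd34 at 0.12, Pi16 at -0.09 and Thy1 at -0.32. The matrix proteases Adamts1 and Adamts5 differed by 0.46 and 0.30 (adjusted p = 0.0617 and 0.233). They were the 2 members whose 4 h arrays all lay above the 2 h arrays (0.841% of all probe sets). For 3 members the 4 h arrays all lay below (1.73% of all probe sets). On the IL-1b arrays the list's median difference between 4 and 2 h was 0.005. In whole muscle, fewer cells of a type and less RNA per cell cannot be told apart.

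Markers of other cells in whole muscle gave no call. Of 17 endothelial markers 0 passed and 4 had an unadjusted p below 0.05, against 11.2% of all probe sets. Their median was -0.093, with list means from 0.070 to 0.237 at 2 h and from -0.114 to 0.224 at 4 h. Pericyte and smooth muscle markers had a median of -0.003 and 0 of 10 past 0.01 (2 below 0.05 unadjusted). At an adjusted p of 0.05, 1 of the 10 was higher at 4 h, against 0.146% of all probe sets. Of 14 monocyte and macrophage, 13 neutrophil, 9 lymphocyte, 7 Schwann cell and nerve, 6 skin and hair and 2 erythrocyte markers, 0 passed, with 3, 0, 0, 1, 1 and 0 of them below 0.05 unadjusted. The part of cell composition in the genes that changed was not tested.

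The muscle of mice given IL-1b, sampled at the same times on separate arrays, gave a second view of the same interval. Between 2 and 4 h after IL-1b, 182 probe sets (1.02%) were called, 93 higher (0.522%) and 89 lower (0.499%), and 17 of the 18 vehicle probe sets differed in the same direction, 9 of them called and 0 called in the opposite one. Over all probe sets 44.7% had the same sign in the 2 treatments. Ucp3 rose by 1.36 ± 0.17 after IL-1b (adjusted p = 1.16e-05), Cpt1a by 0.44 (adjusted p = 0.00415) and Pkp4 by 0.54 (adjusted p = 0.00052). Ypel2 fell by 1.21 (adjusted p = 5.71e-10), Sqle by 0.73 (adjusted p = 0.000285), Dyrk2 by 0.61 (adjusted p = 5.09e-06), Dach1 by 0.47 (adjusted p = 0.000486), Nr4a2 by 0.89 (adjusted p = 0.00901) and Ahdc1 by 0.36 (adjusted p = 0.00721).

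Fosl2 was the exception in direction. After IL-1b it was at 0.22 ± 0.12 (SD, n = 5) at 2 h and 0.29 ± 0.11 at 4 h, a difference of 0.07 ± 0.08, while in vehicle muscle it went from 0.16 ± 0.19 to -0.30 ± 0.09. The difference between the 2 changes was 0.53 ± 0.11 and missed the threshold (adjusted p = 0.0555). Slc25a25, a mitochondrial ATP-Mg carrier gene chosen after its values were seen, differed by -0.92 ± 0.20 in vehicle muscle (adjusted p = 0.026) and by 0.10 after IL-1b (adjusted p = 0.888 there, and 0.245 for the difference of the changes). For 0 of the 18 called probe sets did the change between 2 and 4 h differ between treatments at an adjusted p of 0.01. Over all probe sets 9 (0.0505%) did, all with a higher change after IL-1b.

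**Figure D5:**
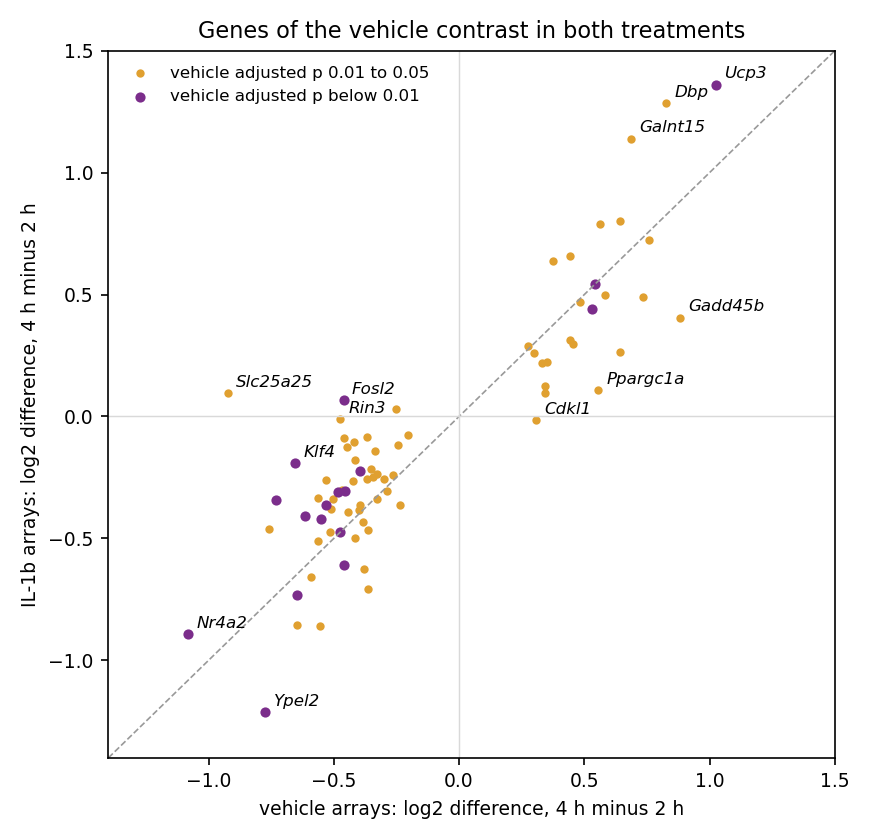
Log2 difference of 4 h minus 2 h on the vehicle arrays (horizontal) and on the IL-1b arrays (vertical) for the named genes past an adjusted p of 0.05 in the vehicle comparison (purple, below 0.01; orange, 0.01 to 0.05). The dashed line marks equal differences. Ucp3 and Ypel2 lie at the ends with larger differences after IL-1b, and Fosl2 lies just above 0 on the vertical axis.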

How the data were processed

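RNA from muscle was hybridised to whole-transcript arrays (labels' protocols). Per the submitters' processing notes, the authors used RMA, with mm9 named as the build. The deposited log2 values (17831 probe sets, 28 arrays, 0 missing) have a median of 0 for each probe set within 1e-06, so they carry no level or background, and no filter on dim probes could be made. The log base is not stated and was taken as log2. The number of arrays limits the precision.

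Of the probe sets, 15620 had 1 gene symbol in the platform annotation, 1370 had several and 841 had none. A gene with several probe sets was represented by the one of lowest number, because the values carry no level. Genes without a single-symbol probe set, such as Irs2, Per2 and Nr1d1, were not analysed here.

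limma 3.58.1 in R 4.3.3 was fitted to the 6 groups on all 28 arrays (22 residual and 3.95 prior degrees of freedom). Every adjusted p is its moderated test with Benjamini-Hochberg adjustment, and the fit was tested on simulated data. The 37 gene lists hold 740 entries, 631 of them measured (597 distinct genes). Named genes were the 15 largest rises and falls past 0.01, up to 6 called members per list, the clock and early gene lists, a panel of 14 genes and the 5 largest differences of change in each direction. Other genes were named after their values were seen. The members and lists were chosen with earlier results of these data known. The alternatives tried were the spread estimate, the normalization, array weights, arrays left out, the 50% of probe sets with the larger spread, the threshold and a block for replicate number. Numbers 1, 5 and 7 occur in both groups, and no label says that they pair the arrays. The deviations of same-numbered arrays correlated at 0.374, -0.434 and -0.207, and those of different-numbered arrays at -0.499 to 0.542. So few same-numbered arrays cannot settle whether the numbers pair them.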

Additional observations from a re-analysis of the deposited data

Results flagged for a closer look

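Of 140 groups of 5 arrays tested for 1 array far from the rest, 6 had one, and chance alone would give about 5%. Pkp4 was at -0.4958 on the 2 h replicate 7, below the other 2 h arrays (-0.2302 to -0.1373), and Atf3 was at 1.5232 on the same array, above the others (-0.0844 to 0.2275). Dyrk2 was at 0.6672 on the 2 h replicate 1, above the others (0.4500 to 0.4909). Among the 4 h arrays, Junb was at 0.3412 on replicate 1 (others -0.1471 to -0.0282), Zfp36 at 0.6661 on replicate 5 (others -0.3501 to -0.0842) and Ddit4 at 1.2402 on replicate 5 (others -1.5165 to -1.1650).

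For 5 named genes the change from 2 to 4 h differed between IL-1b and vehicle muscle by a test of the difference itself (limma, adjusted p below 0.01). The change was higher after IL-1b by 1.2316 for the amino acid transporter gene Slc7a8, 0.8584 for the ceramidase gene Acer2, 0.7946 for the forkhead factor gene Foxo1, 0.7913 for Usp54 and 0.6575 for the growth factor receptor regulator Lrig1. In vehicle muscle these genes differed by 0.08, 0.15, 0.02, 0.11 and -0.25 between 4 and 2 h, and 0 of them passed there. Leaving out 1 of the 20 arrays of these groups ended the call of Lrig1 in 18 fits and those of Acer2 and Foxo1 in 14 fits each (adjusted p up to 0.0215), while Slc7a8 and Usp54 kept theirs in all 20. With a trended and robust spread the adjusted p of all 5 was 0.0988.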

How the results depend on the processing

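Against 18 probe sets called (3 higher, 15 lower, 2 at 1.75-fold or more), the fit to the 10 vehicle arrays called 0, 0, 0 and 0. A trended and robust spread gave 12 with 1 at 1.75-fold, quantile normalization 28 with 6 higher, subtracted array medians 5 higher, array weights 31 with 12 higher (their estimate stopped before convergence), the arrays without the 3 widest 11 with 7 lower, and the 50% of probe sets with the larger spread 5 higher. A false discovery rate of 0.05 gave 84, 26, 58 and 5. A one-way ANOVA over the 6 groups, with a vehicle difference of at least 1.75-fold, selected 6, and 2 of the 18 were among them. That ANOVA can pass on differences between other groups, so it does not test this comparison alone. The replicate block, on numbers that no label says pair the arrays, called 0, 0, 0 and 0, with 819 at an unadjusted p below 0.05. Its differences rest only on the 3 numbers that occur in both groups, which leaves little to estimate the spread from. Its lack of calls therefore decides nothing. No other paired analysis was run. Leaving out 1 array gave 5 to 22 called, 0 to 4 higher, 5 to 18 lower and 0 to 6 at 1.75-fold. Of the 18, 12 were still called with the trended spread, 17 after quantile normalization, 18 with medians subtracted, 16 with array weights and 9 without the widest arrays, and all 18 kept their direction in each of these settings. Differences in change between treatments numbered 9, against 0 with a trended spread, 62 with array weights, 4 in that 50% and 2 to 27 without 1 array. Background correction and slide could not be varied on these values.

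Some differences, none of them called, changed sign, and the cause was not tested. With the replicate block Clock was 0.0586, Per1 0.0212, Fosl1 0.0376, Egr3 0.0215, Klf6 0.1102, Ier3 0.0503, Zfp36 0.0326, Rgs2 -0.1810 and Ddit4 0.1669. These block values rest only on the 3 replicate numbers that occur in both groups. Quantile normalization gave 0.0207 for Bhlhe41, 0.0072 for Fosl1, 0.0013 for Jun, 0.0348 for Maff and 0.0808 for Zfp36. Subtracted medians gave 0.0043 for Clock, 0.0066 for Bhlhe41 and 0.0099 for Klf6. Array weights gave 0.0618 for Bhlhe41, 0.0215 for Myc, 0.0399 for Maff, -0.1513 for Fkbp5 and -0.0560 for Foxo1. Without the widest arrays Bhlhe41 was 0.0643, Fosl1 0.0264, Maff 0.0098, Ier3 0.0314, Zfp36 0.0606 and Rgs2 -0.0089. Without 1 array the differences ran from -0.1202 to 0.0450 for Clock, -0.2606 to 0.0048 for Per1, -0.0807 to 0.0643 for Bhlhe41, -0.1243 to 0.0301 for Fosl1, -0.0938 to 0.0086 for Jun, -0.0260 to 0.1190 for Junb, -0.1074 to 0.0295 for Maff, -0.0035 to 0.1259 for Egr2, -0.0666 to 0.0534 for Klf6, -0.1042 to 0.0314 for Ier3, -0.2008 to 0.0606 for Zfp36, -0.1548 to 0.0313 for Dusp1, -0.1103 to 0.0620 for Ccn1, -0.0755 to 0.1599 for Rgs2, -0.0565 to 0.1657 for Fkbp5 and -0.0375 to 0.0776 for Foxo1.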

Other observations

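A few single genes that passed an adjusted p of 0.05 but not 0.01 were chosen after their values were seen. Dnmt3a, a DNA methyltransferase gene, differed by -0.33 (adjusted p = 0.026), and Tet2 and Tet3, which oxidise methylcytosine, by -0.44 and -0.45 (adjusted p = 0.0275 and 0.026). The semaphorin receptor genes Plxnd1 and Plxna1 differed by -0.53 and -0.42 (adjusted p = 0.0226 and 0.0406). The prostaglandin receptor genes Ptgfr and Ptger4 differed by 0.56 and 0.30 (adjusted p = 0.0215 and 0.0384). Gadd45b, a stress-induced gene, differed by 0.88 ± 0.17 (adjusted p = 0.0192), with overlapping groups. No list of related genes was tallied for any of these, so they describe single genes and not their families.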
